A study of Homo sapiens with 4 samples.

Results

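The genes described here are the CDK inhibitors CDKN1A, CDKN1B, CDKN1C, CDKN2A, CDKN2B, CDKN2C and CDKN2D, together with the RB pocket proteins RB1, RBL1 and RBL2. They were taken by gene symbol, which gave 10 genes of the 58735 in the tables, and all 10 had enough counts to be tested. The RNA came from HaCaT cells, a spontaneously immortalized line of human keratinocytes, grown in medium with serum. A group of 2 libraries was made after transfection of a negative control siRNA into wild-type cells (siControl), and a group of 2 libraries after transfection of siRNA against ALKBH5, an enzyme that removes N6-methyladenosine from RNA (siALKBH5). Every culture received 200 pmol of siRNA with the same lipid reagent. The knockdown was transient and in a single cell line, and the labels give neither the hours between transfection and harvest nor which ALKBH5 siRNA was used. Nothing states that the 2 libraries of a group came from separate cultures, so p-values measure the spread between these libraries, which may be technical. The study asked which transcripts change when ALKBH5 is silenced in keratinocytes. It assayed the proliferation of the same line separately, by CCK-8, Ed-U and flow cytometry, and reported it unaltered by the knockdown.

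Cyclin-dependent kinases carry a cell through its division cycle, in part by phosphorylating the pocket proteins. While unphosphorylated, RB1 and its relatives RBL1 (p107) and RBL2 (p130) hold E2F factors in check, and phosphorylation releases the genes needed for DNA synthesis. The inhibitors act upstream: INK4 proteins (encoded by CDKN2A to CDKN2D) bind CDK4 and CDK6, while CIP/KIP proteins (p21, p27 and p57, encoded by CDKN1A to CDKN1C) bind complexes of cyclins with CDKs, CDK2 included. In epidermis these brakes are known for the exit of keratinocytes from the cycle as they differentiate and for growth arrest by TGF-beta.

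The libraries held between 16017502 and 18837807 counts on genes. ALKBH5 itself stood at 93.7 and 87.5 CPM in siControl and at 51.1 and 49.5 CPM in siALKBH5, where CPM is the TMM-scaled count per 1e+06 counts, so 55.5% of the control level remained. The libraries of a group differed by more than sampling noise, with a chi-square per gene of 1.74 in siControl and 1.85 in siALKBH5, against 18.2 to 20.3 between libraries of different groups. Summed over 10 keratinocyte markers, the level was 20225 and 19834 CPM in siControl and 25982 and 26065 CPM in siALKBH5. Summed over 13 markers of fibroblasts, melanocytes, leukocytes and endothelium, it was 41.5 and 43.3 CPM in siControl and 48.1 and 48.7 CPM in siALKBH5. Of these 13 genes, 8 had fewer than 10 counts in each library, and 3 of these 8 (COL1A2, PDGFRB and TYR) had no count in any. COL1A1, a fibroblast marker, averaged 16.9 CPM in siControl and 16.4 CPM in siALKBH5. Both marker sums were higher in siALKBH5, but the single genes did not move as one. KRT5 averaged 7023 CPM in siControl and 11231 CPM in siALKBH5, while KRT17, TP63, PERP and LAMB3 had lower means in siALKBH5. Among the markers of other cells, VWF went from a mean of 18.7 CPM in siControl to 26.6 CPM in siALKBH5, and DCN from 3.58 to 1.52 CPM. The part of the marker genes in the results below was not tested. In bulk RNA, a different share of cells in one phase of the cycle and a different amount of RNA per cell cannot be told apart.

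The sequences just upstream of the members' start sites are shown for the pocket-protein pair that moved in opposite directions and for the INK4 genes with the largest rise and the largest fall. RefSeq start sites on GRCh38.p14 were available for 9 members, with 13 windows in all. The 250 bases upstream of each start were searched on both strands for the E2F motif TTTCGCGC or TTTGGCGC, for the GC box GGGCGG and for CCAAT. No hit in a member window overlapped a hit of another motif, though some GC boxes overlapped one another. Capitals mark these motifs in the 100 bases before the start, written 5′ to 3′ on the strand of the gene.
RBL1, minus strand, chr20:37095998-37096097: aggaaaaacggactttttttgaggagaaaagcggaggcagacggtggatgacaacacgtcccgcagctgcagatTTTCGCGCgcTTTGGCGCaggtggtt
RBL2, plus strand, chr16:53434371-53434470: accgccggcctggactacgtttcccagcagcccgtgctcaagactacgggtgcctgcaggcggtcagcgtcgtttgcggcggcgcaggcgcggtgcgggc
CDKN2C, plus strand, chr1:50968606-50968705: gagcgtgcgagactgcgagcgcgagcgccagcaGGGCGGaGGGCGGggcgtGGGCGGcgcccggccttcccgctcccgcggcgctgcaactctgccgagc
CDKN2C, plus strand, chr1:50970145-50970244: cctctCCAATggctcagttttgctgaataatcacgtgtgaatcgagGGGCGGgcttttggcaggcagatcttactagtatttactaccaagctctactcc
CDKN2B, minus strand, chr9:22009306-22009405: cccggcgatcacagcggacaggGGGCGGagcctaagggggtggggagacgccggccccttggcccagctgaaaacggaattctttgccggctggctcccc

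The window of RBL1 held 2 E2F motifs, starting 26 and 16 bases upstream of the start. It was the 1 member window with this motif, which 0.968% of all 35116 RefSeq windows held. The GC box was in a window of CDKN1A, CDKN1B, CDKN2A, CDKN2B, CDKN2C and CDKN2D. It was in 42.6% of all windows, and 46.2% of all 27305 genes with windows had it in at least 1. CCAAT was found for CDKN1B, CDKN2C, CDKN2D and RBL2, in 32.0% of all windows and for 37% of all genes with windows. CDKN2C has a further start and RBL2 another one, not printed above, and the counts per gene do not say which start was used. For RB1, the window lies at 48476450 on chromosome 13, far inside the gene, whose listed start is 48303726. A match is a run of letters and not evidence of binding. Other forms of these motifs were not searched, so a window without a match may still hold such a site.

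After ALKBH5 knockdown, CDKN2C and RBL1 rose most among the members, CDKN1A rose less, and CDKN2B and RBL2 fell. CDKN2A was just past the threshold, and its call was lost in 7 of the 11 alternative settings. CDKN1B, CDKN1C, CDKN2D and RB1 did not pass the test. At an adjusted p under 0.05 (edgeR's quasi-likelihood test, Benjamini-Hochberg adjustment over 15075 genes), 6 of the 10 members passed, 4 higher and 2 lower, and 5 or 6 did so in the alternatives. Of all genes tested, 36.6% passed, 19.3% higher and 17.3% lower. Among the 9567 genes with at least the mean level of the lowest member, 8.73 CPM, 48.0% passed. The count of 6 of 10 is read against that share, and nothing particular to the members is drawn from it. With the thresholds of the study, which also ask for a log2 change of 1 or more up or down, 0 of the 10 members were called by edgeR, 0 at an unadjusted p and 0 by DESeq2, against 2.92% of all genes. The median log2 fold change was 0.08 over the members and -0.0081 over all genes tested. The groups did not overlap for 7 members, with siALKBH5 above for 5 and below for 2, against 66.3% of all genes tested.

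**Figure D1:**
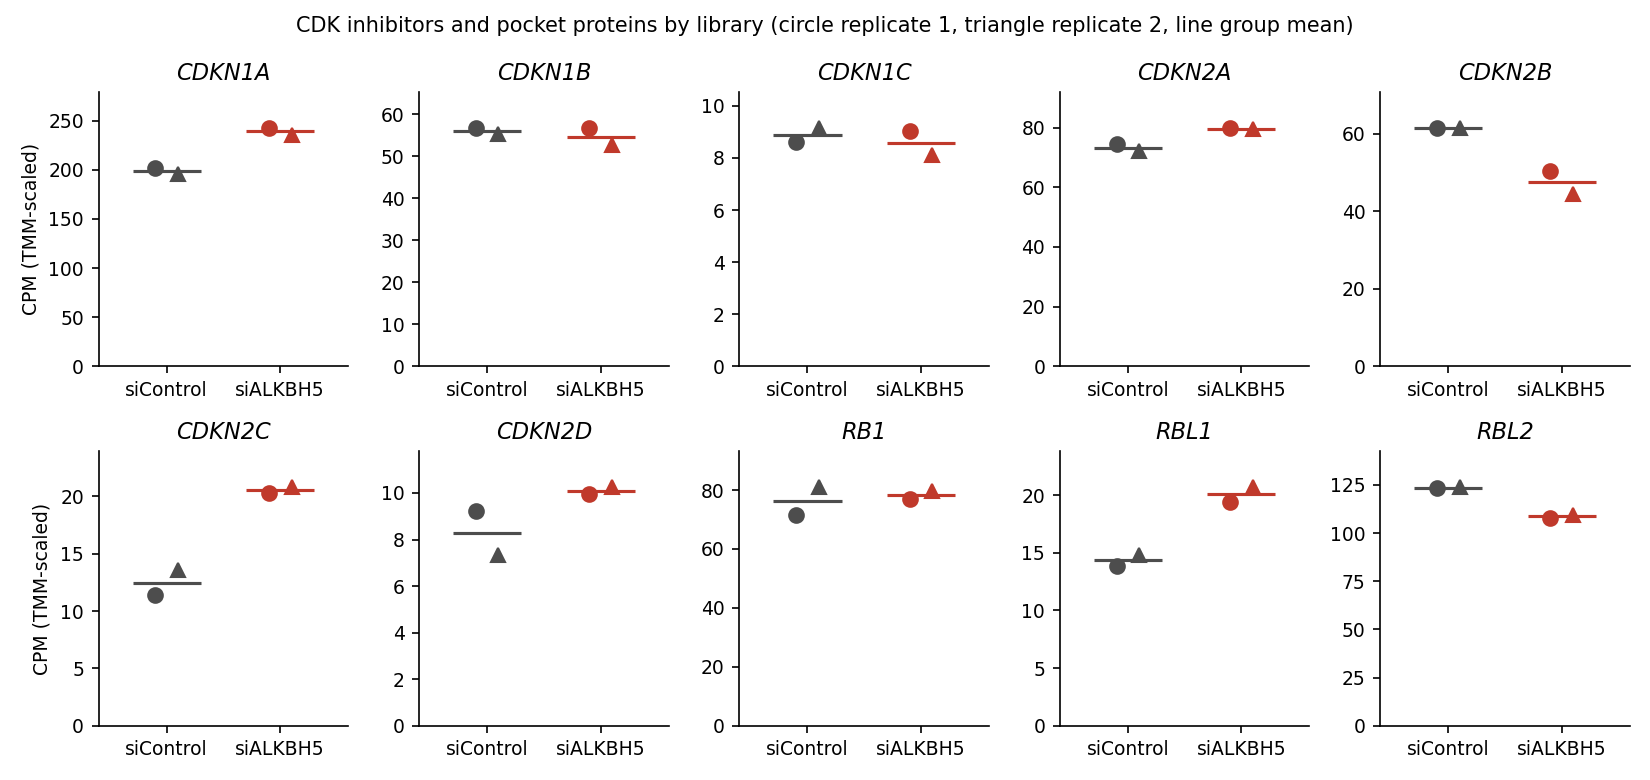
CPM after TMM scaling (vertical axes from 0, a different range in each panel) of the 10 genes in the 2 siControl and 2 siALKBH5 libraries, with circles for replicate 1, triangles for replicate 2 and lines for group means. The siALKBH5 points lie above both siControl points for CDKN1A, CDKN2A, CDKN2C, CDKN2D and RBL1 and below them for CDKN2B and RBL2.

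**Figure D2:**
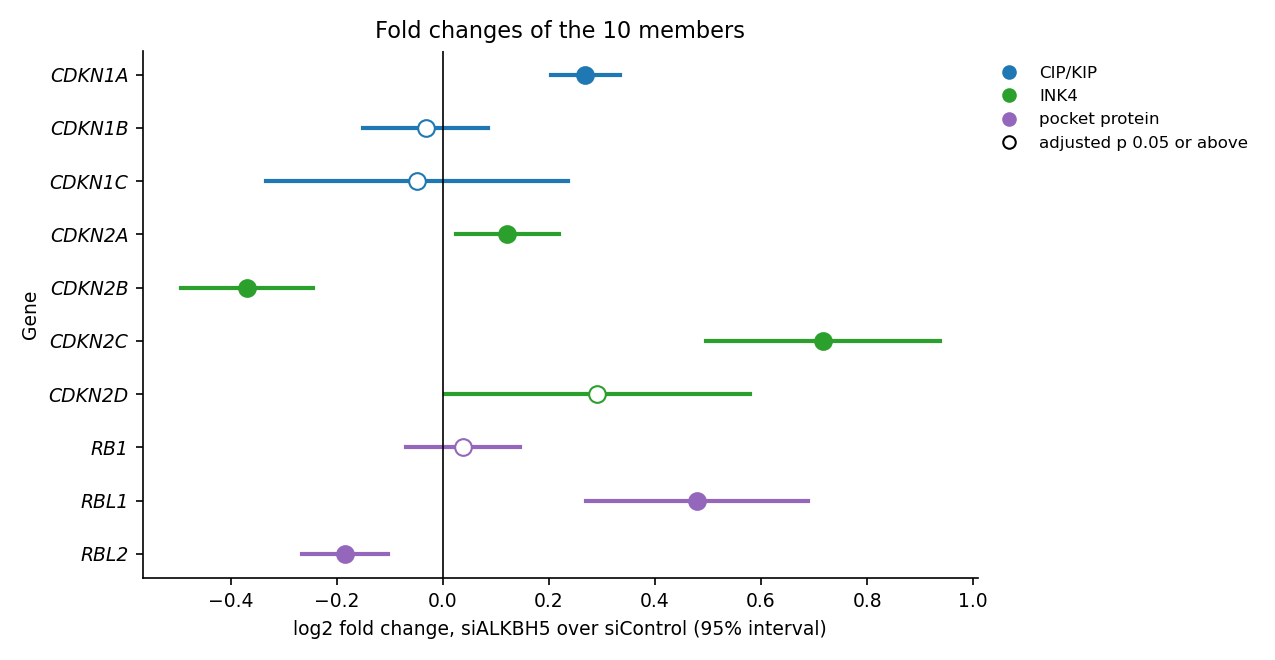
Log2 fold change of each gene, siALKBH5 over siControl, with its 95% interval from edgeR, where filled points have an adjusted p under 0.05 and colours give the class. CDKN2C at 0.72 and CDKN2B at -0.37 are the ends of the range, and the intervals of CDKN1B, CDKN1C and RB1 include 0.

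Among the CIP/KIP inhibitors, CDKN1A (ENSG00000124762, GRCh38 chromosome 6 from 36676460 to 36687339), which encodes p21, was measured at 202 and 195 CPM in siControl and at 243 and 235 CPM in siALKBH5. Both knockdown libraries were above both controls. Its group means were 199 ± 4.76 CPM (SD, n = 2) and 239 ± 5.03 CPM (SD, n = 2), a log2 fold change of 0.27 (SE 0.032, adjusted p = 3.0e-08 by edgeR). The direction and the call were kept in all 11 alternative settings, with values from 0.24 to 0.30. Of the exon bases of CDKN1A, 4.79% are shared with DINOL on the other strand, a noncoding RNA with at most 1 count in any library.

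CDKN1B (ENSG00000111276, chromosome 12 from 12715058 to 12722371) encodes p27, whose abundance is largely set by protein degradation. It read 56.7 and 55.3 CPM in siControl and 56.7 and 52.5 CPM in siALKBH5, with overlapping groups. Its log2 fold change was -0.033, with a 95% interval from -0.15 to 0.086 (adjusted p = 0.71 by edgeR). CDKN1C (ENSG00000129757, chromosome 11 from 2883213 to 2885773), an imprinted gene that encodes p57, was much lower. It reached 8.61 and 9.16 CPM in siControl and 9.03 and 8.13 CPM in siALKBH5, again overlapping. The 95% interval of its log2 fold change ran from -0.33 to 0.24 around -0.049 (adjusted p = 0.83 by edgeR). At this depth of 134 to 169 counts per library, changes of either sign within that interval remain possible. Both directions were unstable, since each fold change was positive without siALKBH5 replicate 2, at 0.022 for CDKN1B and 0.025 for CDKN1C.

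The INK4 genes went in both directions. CDKN2C (ENSG00000123080, chromosome 1 from 50960745 to 50974633) encodes p18, an inhibitor of CDK6 and CDK4, and had the largest rise of the 10 members. It was counted 184 and 244 times in siControl against 380 and 343 times in siALKBH5, or 11.4 and 13.5 CPM against 20.3 and 20.8 CPM. The gap between the groups was wider than the spread within either. The knockdown mean was 165% of the control mean (20.6 ± 0.351 against 12.5 ± 1.51 CPM, SD, n = 2 each), and the log2 fold change was 0.72 (SE 0.11, adjusted p = 2.3e-06 by edgeR). Leaving out single libraries gave values from 0.60 to 0.85. Of its windows, those with GC boxes are printed above, and none of the 3 windows of CDKN2C held either searched form of the E2F motif. Other forms were not searched.

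CDKN2B (ENSG00000147883, chromosome 9 from 22002903 to 22009363) encodes p15, an inhibitor that TGF-beta is known to induce in keratinocytes. The control libraries gave 990 and 1108 counts and the knockdown libraries 942 and 733, or 61.4 and 61.5 CPM against 50.4 and 44.5 CPM. The controls were nearly alike, and both knockdown libraries lay below them. The mean fell to 77.2% of the control (61.4 ± 0.0979 to 47.4 ± 4.16 CPM, SD, n = 2 each), with a log2 fold change of -0.37 (SE 0.061, adjusted p = 9.4e-06 by edgeR). With each library left out in turn it ranged from -0.46 to -0.28, called each time.

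CDKN2A (ENSG00000147889, chromosome 9 from 21967753 to 21995301) gives rise to p16, which binds CDK4 and CDK6, and to ARF, an unrelated protein read in another frame. These products come from separate first exons joined to shared exons, and a count per gene does not tell them apart. Its level was 74.5 and 72.0 CPM in siControl and 79.9 and 79.4 CPM in siALKBH5. The groups did not overlap, but the difference was small, at a log2 fold change of 0.12 (SE 0.048, adjusted p = 0.046 by edgeR). The call was lost with DESeq2 (adjusted p = 0.18), with library size only (adjusted p = 0.11), without the expression filter (adjusted p = 0.062) and when any 1 of the 4 libraries was left out (adjusted p from 0.058 to 0.28). Of its exon bases, 7.88% are shared with CDKN2B-AS1 on the other strand.

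CDKN2D (ENSG00000129355, chromosome 19 from 10566462 to 10569059) encodes p19, the remaining INK4 inhibitor. It showed 9.23 and 7.33 CPM in siControl and 9.94 and 10.3 CPM in siALKBH5. The groups did not overlap, yet the spread between the controls was wide for these 132 to 186 counts, and the log2 fold change of 0.29 (95% interval 0.0034 to 0.58) had an adjusted p of 0.11 by edgeR. The value turned on the controls, being 0.46 (adjusted p = 0.030) without siControl replicate 1 and 0.13 (adjusted p = 0.64) without siControl replicate 2.

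CDKN2A and CDKN2B are neighbours on the minus strand of chromosome 9, and CDKN2B-AS1 (ANRIL) runs through the same region on the plus strand. For CDKN2B-AS1 the controls gave 24 and 36 counts and the knockdown libraries 32 and 29, at a log2 fold change of -0.014 (SE 0.33, adjusted p = 0.98 by edgeR). MTAP, the methylthioadenosine phosphorylase gene on the far side of CDKN2A, had 25.0 CPM in siControl and 20.8 CPM in siALKBH5 on average. Its log2 fold change was -0.27 (SE 0.090, adjusted p = 0.018 by edgeR), and it was not called by DESeq2 (adjusted p = 0.11), without siControl replicate 2 (adjusted p = 0.32) or without siALKBH5 replicate 1 (adjusted p = 0.056). So the neighbours CDKN2B and CDKN2A had fold changes of opposite sign, that of CDKN2A being the less certain. At the CDKN1C locus, the antisense transcript KCNQ1OT1 was counted 46 and 67 times in the controls and 102 and 86 times after knockdown. Its log2 fold change was 0.69 (SE 0.20, adjusted p = 0.0068 by edgeR), with an adjusted p of 0.061 by DESeq2 and 0.084 without siControl replicate 1. It lies within KCNQ1 on the other strand, and whether the counting kept the reads of such partners apart is not given in the sources used here. Of the 5 neighbours listed, 4 were tested, 1 rose and 1 fell.

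The 3 pocket proteins also parted. RBL1 (ENSG00000080839, chromosome 20 from 36996349 to 37095995), the p107 gene, is known to be low in resting cells and to rise in cycling ones. The controls gave 224 and 267 counts and the knockdown libraries 363 and 341, or 13.9 and 14.8 CPM against 19.4 and 20.7 CPM. Both knockdown libraries were above both controls, at 140% of the control mean (14.3 ± 0.662 against 20.05 ± 0.908 CPM, SD, n = 2 each). Its log2 fold change was 0.48 (SE 0.10, adjusted p = 0.00035 by edgeR), between 0.44 and 0.53 in all 11 alternatives and called in each. RBL1 is the gene whose upstream window, printed above, holds the E2F motif pair. Any part of these motifs in the change of RBL1 was not tested. Of its exon bases, 3.54% are shared with AL136172.1, a gene on the other strand with at most 1 count in any library.

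RBL2 (ENSG00000103479, chromosome 16 from 53433977 to 53491649), the p130 gene, is the pocket protein best known from resting cells. It was at 123 and 124 CPM in siControl and at 108 and 109.5 CPM in siALKBH5, without overlap. The mean was 88.0% of the control, and the log2 fold change was -0.19 (SE 0.040, adjusted p = 0.00038 by edgeR), called in all 11 alternatives with values from -0.21 to -0.17. Of the exon bases of RBL2, 18.2% are shared with AKTIP and AC007342.6 on the other strand. AKTIP, whose gene runs toward the end of RBL2, had itself a log2 fold change of -0.28 (SE 0.074, adjusted p = 0.0030 by edgeR, but 0.053 without siControl replicate 2), and its part in the value of RBL2 was not tested.

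RB1 (ENSG00000139687, chromosome 13 from 48303726 to 48599436) encodes the founding pocket protein, the retinoblastoma tumour suppressor. Its values were 71.4 and 81.0 CPM in siControl and 77.04 and 79.8 CPM in siALKBH5. The knockdown libraries lay between the controls, and the log2 fold change of 0.037 had a 95% interval from -0.070 to 0.14 (adjusted p = 0.63 by edgeR). Without siControl replicate 1 it was -0.045.

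A ratio of a pair of genes within one library does not depend on how libraries are scaled. Per length, RBL1 stood at 0.139 and 0.147 of RBL2 in siControl and at 0.221 and 0.232 in siALKBH5. CDKN2C stood at 0.227 and 0.269 of CDKN2B in siControl and at 0.493 and 0.572 in siALKBH5. CDKN1A was 3.28 and 3.26 times CDKN1B in siControl and 3.94 and 4.13 times in siALKBH5. The pairs were chosen with the changes of the single genes known, so these ratios describe those changes on another scale and add no test.

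Levels can be compared between genes only per length, here as FPKM recomputed from the TMM-scaled counts and the listed exon length. That length joins the exons of all annotated transcripts of a gene, 14 of them for CDKN2A, at 4329 bases. It can exceed the length of the transcripts present, so the order of genes with close values is uncertain. CDKN1A was by far the most abundant member, at 65.1 ± 1.56 FPKM in siControl and 78.4 ± 1.65 FPKM in siALKBH5 (SD, n = 2 each). In siControl, CDKN1B followed at 19.9 FPKM, then CDKN2A at 16.9, RBL2 at 16.9, CDKN2B at 15.1 and RB1 at 11.8. CDKN2D at 5.51, CDKN2C at 3.76, CDKN1C at 3.59 and RBL1 at 2.41 FPKM were the scarce members. CDKN2A and RBL2 did not differ beyond their spread in siControl, nor did CDKN2C and CDKN1C. In siALKBH5 the order changed at 1 place, where RB1 at 12.2 FPKM passed CDKN2B at 11.7 FPKM, although the library values of these genes overlapped. CDKN2C at 6.20 FPKM was then clear of CDKN1C at 3.46, whereas RBL1 at 3.37 FPKM reached the level of CDKN1C.

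Summed by class, the INK4 genes held 41.9 and 40.7 FPKM in siControl and 43.6 and 42.4 FPKM in siALKBH5, a narrower gap than that of CDKN2C or CDKN2B alone. The pocket proteins summed to 30.2 and 32.0 FPKM in siControl and 29.9 and 30.8 FPKM in siALKBH5, which overlap. The CIP/KIP sum was 89.9 and 87.4 FPKM in siControl and 103 and 99.2 FPKM in siALKBH5, most of it CDKN1A.

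**Figure D3:**
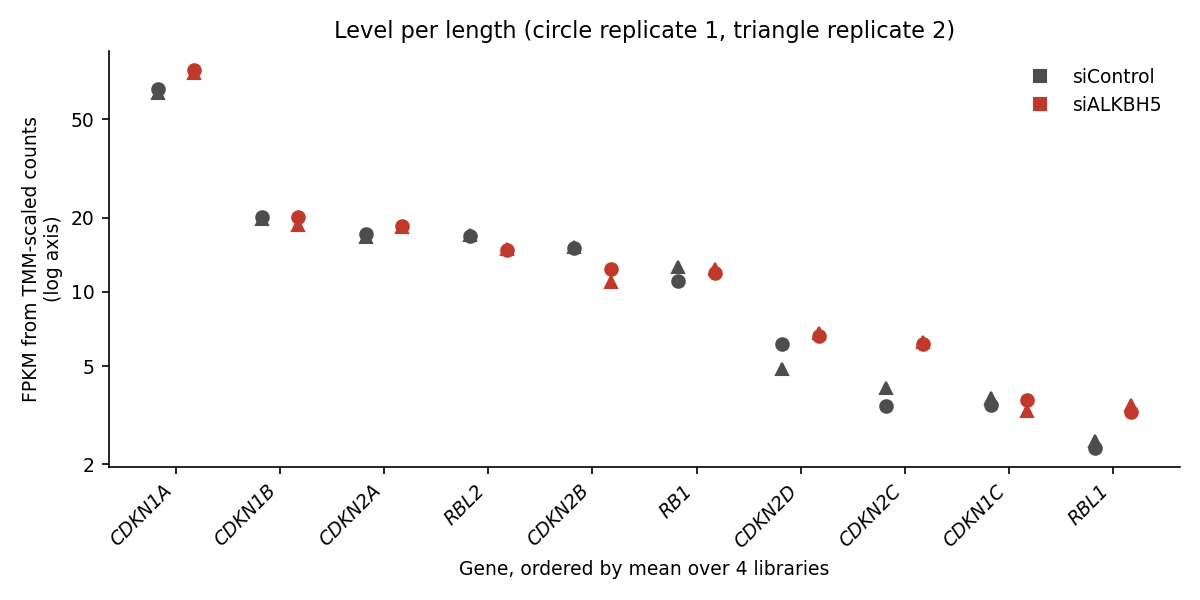
Level per length of each gene in each library, as FPKM from TMM-scaled counts on a log axis, ordered by the mean over the 4 libraries, with circles for replicate 1 and triangles for replicate 2. CDKN1A lies above 60 FPKM in every library, the next 5 genes between 10 and 21, and CDKN2D, CDKN2C, CDKN1C and RBL1 below 7.

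The other genes of the pathway were taken from lists of cyclins and CDKs, E2F factors, their targets and regulators of the inhibitors. Each count in these lists and in the marker lists is read against all genes tested, of which 36.6% were called, 19.3% higher and 17.3% lower. The share was 48.0% among genes with at least the mean level of the lowest member. Nothing particular to a list is drawn from a count near these shares. Of the 11 cyclins and CDKs, 6 rose and 2 fell, with a median log2 fold change of 0.40. CCNA2 (log2 fold change 0.82, SE 0.050, adjusted p = 3.1e-15 by edgeR) and CCNB1 (0.76, SE 0.036, adjusted p = 3.8e-18), cyclins of the later cycle, had the largest changes, followed by the D-type cyclin CCND3 (0.53, SE 0.081, adjusted p = 3.1e-06). The direct partners of the INK4 proteins were picked out after their values were seen. CDK6 rose by a log2 fold change of 0.32 (adjusted p = 0.00013 by edgeR) and by 0.20 without siControl replicate 2, while CDK4 had 0.028 (SE 0.064, adjusted p = 0.77 by edgeR). CCND1, the most abundant D-type cyclin here per length, fell by 0.16 on the log2 scale (adjusted p = 3.4e-05 by edgeR). The D-type cyclin CCND2 fell further, by 0.39 (SE 0.083, adjusted p = 0.00031 by edgeR).

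Of the 7 E2F and DP genes that pair with pocket proteins, 3 rose, with a median of 0.30, and 2 to 4 did so in the alternatives. E2F1, an activator, had 0.65 (SE 0.19, adjusted p = 0.0084 by edgeR), but 0.34 (adjusted p = 0.31) without siALKBH5 replicate 1, 0.50 (adjusted p = 0.074) without siControl replicate 2 and an adjusted p of 0.073 by DESeq2. The dimer partner TFDP1 rose by 0.40 (SE 0.040, adjusted p = 4.5e-10 by edgeR) and E2F2 by 0.34 (SE 0.071, adjusted p = 0.00025). Other values of this list were negative, down to -0.33. In the reported test 0 of its genes were called lower, but 1 was with library size only and 1 with the replicate block. Of the 5 genes of the MuvB core, which joins RBL1 or RBL2 and E2F in the DREAM repressor, 4 were tested. Of these, RBBP4 fell by 0.21 on the log2 scale (SE 0.050, adjusted p = 0.0014 by edgeR; adjusted p = 0.078 without siControl replicate 1), and the median was 0.15.

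The 15 E2F target genes moved furthest, with 13 higher and a median log2 fold change of 0.74, and the remaining 2 had positive values that missed the threshold. MYBL2, a transcription factor gene repressed by pocket proteins in resting cells, rose by 1.35 (SE 0.069, adjusted p = 3.3e-17 by edgeR). CDC6, a replication licensing factor, rose by 1.20 (SE 0.088, adjusted p = 3.5e-13), and TK1, the thymidine kinase, by 1.154 (SE 0.045, adjusted p = 2.6e-20). A rise of proliferation genes in these libraries was known when the list was written, so its count is not independent evidence.

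**Figure D4:**
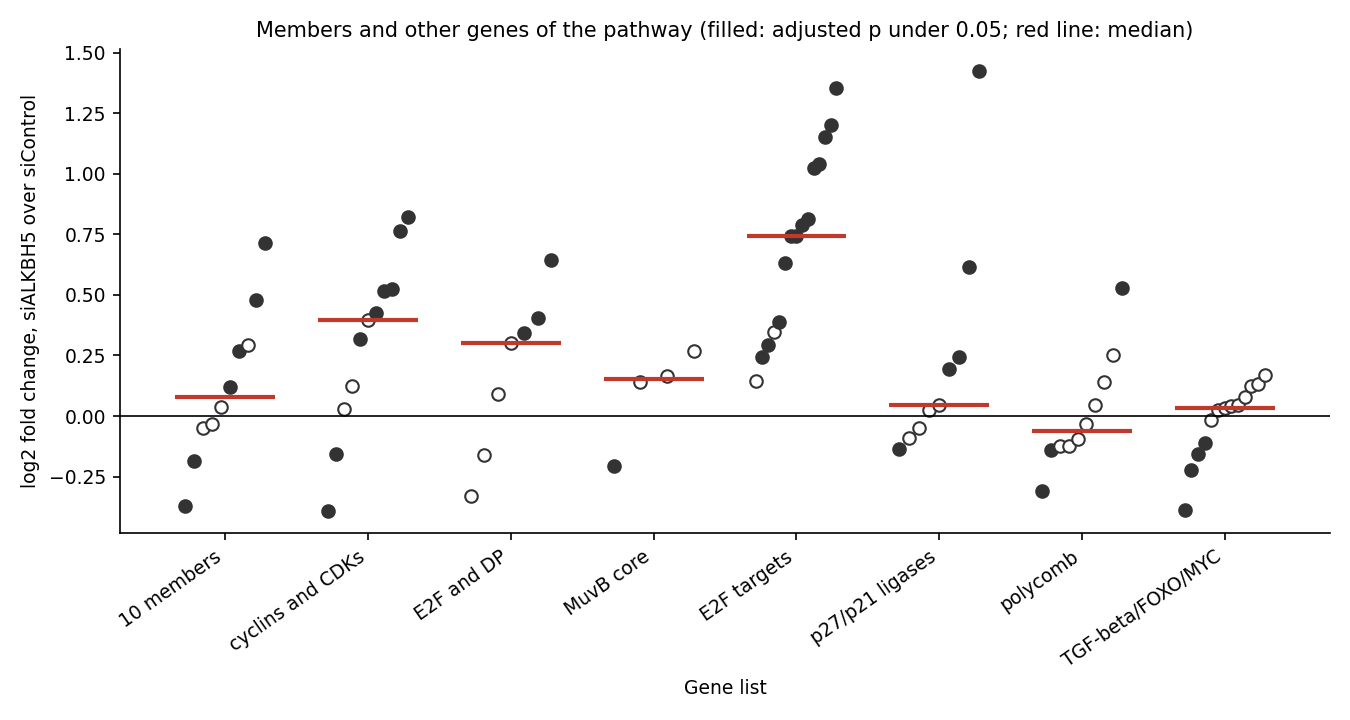
Log2 fold changes, siALKBH5 over siControl, of the 10 members and of the tested genes in 7 lists of the pathway, where each point is a gene, filled points have an adjusted p under 0.05 by edgeR and red lines are medians. The E2F targets have the highest median, 0.74, against 0.08 for the members, which lie on both sides of 0.

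Among the 9 genes of the ubiquitin ligases that degrade p27 and p21, 4 rose and 1 fell, with a median of 0.046. In the 11 alternatives 3 or 4 rose and 0 to 2 fell, none falling with DESeq2 or without either second library. DTL, the adaptor that marks p21 for degradation, rose by 1.42 (SE 0.16, adjusted p = 1.1e-08 by edgeR). CKS1B, the cofactor of SKP2 for p27, rose by 0.62 (SE 0.043, adjusted p = 1.5e-13), and DDB1 by 0.24 (SE 0.025, adjusted p = 1.8e-09). The transcript of CDKN1B itself did not pass the test, as given above, and protein was not measured here.

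Of the 10 polycomb and related regulators of the CDKN2A locus, 1 rose and 2 fell, with a median of -0.064. EZH2, the polycomb methyltransferase, rose by 0.53 (SE 0.094, adjusted p = 2.9e-05 by edgeR). BMI1, a repressor of CDKN2A, had -0.31 (SE 0.10, adjusted p = 0.015), and the demethylase gene KDM6B had -0.14 (SE 0.050, adjusted p = 0.027). Neither of the latter was called by DESeq2, at adjusted p-values of 0.099 and 0.15. BMI1 also lost its call without either second library (-0.21 without siControl replicate 2), and KDM6B without siControl replicate 1 (-0.095) or siALKBH5 replicate 2 (-0.096).

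Of the 13 TGF-beta, FOXO and MYC genes that act on the inhibitors, 4 were called, each lower, with a median of 0.034, against 36.6% of all genes called in either direction. The count was 3 or 4 in the 11 alternatives. SMAD4, the common mediator of TGF-beta signalling, fell by 0.39 on the log2 scale (SE 0.053, adjusted p = 3.6e-07 by edgeR). SMAD2 fell by 0.16 (SE 0.041, adjusted p = 0.0023), and FOXO4 had -0.22 (SE 0.089, adjusted p = 0.046), with no call by DESeq2 (adjusted p = 0.20) or with any 1 library left out (adjusted p from 0.055 to 0.24). SMAD3 was the other gene that fell. Any link of these genes to the level of CDKN2B was not tested. Of the keratinocyte markers, 6 of 10 rose and 3 fell, with a median of 0.18. Of the markers of other cell types, 4 of 13 were tested, 1 rose and 1 fell, with a median of 0.16.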

How the data were processed

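Poly-A RNA of HaCaT cells was sequenced in 2 siControl and 2 siALKBH5 libraries. The authors deposited raw counts per gene in 1 table for each pair of libraries, and the submitters' processing notes name HISAT2 2.0.5, featureCounts 1.5.0-p3 and hg38. FPKM, which the authors also deposited, had been scaled separately per table and were left aside. The deposited columns of fold changes and p-values, which set 1 library against 1, were not used. The deposited gene lengths served to recompute FPKM. Of 58735 genes, 58724 have the identifier and coordinates of GENCODE 29. Whether counting used strand is not given in the sources used here.

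The test was edgeR's quasi-likelihood test (version 4.0.16, R 4.3.3), with glmQLFit and glmQLFTest after filterByExpr and TMM scaling, no covariates and Benjamini-Hochberg adjustment over 15075 genes. Standard errors and 95% intervals come from the same model. Alternatives were DESeq2 1.42.0, other scalings and filters, a block and each library left out. All 10 members were named, and up to 3 called genes of each list by size of change at a mean of at least 1 CPM. CDK4, CDK6, CCND1, CCND2, SMAD3, AKTIP and the single marker genes were named after their values were seen. The members and lists were chosen with earlier results of these data known. One further list is not reported here. The steps were tested on simulated data.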

Additional observations from a re-analysis of the deposited data

How the results depend on the processing

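Across the 11 alternative settings, 5 or 6 members were called, 3 or 4 of them higher and 2 lower, and the calls of CDKN1A, CDKN2B, CDKN2C, RBL1, RBL2 and ALKBH5 held in each. CDKN2A, at 0.12 in the reported test, had log2 fold changes of 0.13 with DESeq2, 0.099 with library size only and 0.13 without the expression filter, none of them called. With each library left out it ranged from 0.096 to 0.15, not called in any. The other ranges with each library left out were 0.13 to 0.46 for CDKN2D (called without siControl replicate 1), -0.045 to 0.13 for RB1, -0.089 to 0.022 for CDKN1B, -0.13 to 0.025 for CDKN1C, -0.060 to 0.13 for CDK4 and -0.20 to 0.22 for CDKN2B-AS1, of which the last 5 changed sign uncalled. The cause was not tested. The share of all genes called fell from 36.6% to 26.4% with DESeq2.

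The first libraries of both groups came in one table and the second in another. Over 10416 genes, the difference between the libraries of siControl correlated with that of siALKBH5 at 0.091 (genes are not independent replicates). With the replicate block, 6 members were called, as without it, and the number of all genes called rose from 5523 to 5922. With 2 libraries a group, the spread rests on the estimate that edgeR shares over genes, and members with under 200 counts per library, CDKN1C and CDKN2D, had the widest intervals.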
